A study of Mus musculus with 6 samples.

Results

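Glycolysis splits glucose into pyruvate in the cytosol, and lactate dehydrogenase turns pyruvate into lactate. Many genes of the pathway are also targets of hypoxia-inducible factor (HIF), a transcription factor whose alpha subunit is hydroxylated and degraded when oxygen is plentiful and builds up when oxygen is scarce. The genes followed here are 36 mouse genes of these 2 systems, given by symbol: 4 carriers of glucose and lactate, 17 glycolytic enzymes, 4 switches that set how much carbon enters or leaves the pathway, 3 genes of oxygen sensing and 8 other genes that low oxygen is known to raise. Each was looked up by matching its symbol in the deposited expression tables, which hold 18946 genes in all. The matching did not use its level in these libraries, but the 36 genes were chosen with earlier results of these data known.

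The cells were BaF3, a mouse interleukin-3-dependent line that the labels call pro-B and chronic lymphocytic leukemia. They were grown in RPMI medium with 10% fetal bovine serum and 2 ng/mL mouse interleukin-3, nucleofected with 1 of 3 plasmids, sorted 24 hours later and sequenced as messenger RNA. The CTdel group received pmax-Clover-CTdel, a form of the NOTCH1 intracellular domain that the series' design text calls a mutant of ICN. The ICN group received pmax-Clover-ICN, which carries the NOTCH1 intracellular domain, the part of the receptor that enters the nucleus and turns on transcription. The con group received pmax-Clover, the same fluorescent-protein plasmid without a NOTCH1 insert, so that all 3 groups went through nucleofection and carried Clover. Each group had 2 libraries, and the 3 libraries of replicate 1 and the 3 of replicate 2 were deposited in separate tables. Separate cultures for the 2 replicates are not stated, so a p-value here measures the spread between these libraries, which may be technical. The cells were measured once, soon after a transient transfection, and the promoter that drives the inserts, the species of the insert and the residues that CTdel lacks are not stated in the labels.

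Values are FPKM (fragments per kilobase of transcript, scaled to the library's mapped fragments), a level per length, so that genes can be set side by side within a library. FPKM summed to between 489693 and 507894 per library. The check of the inserted gene followed the labels: Notch1 had 84.94 and 25.36 FPKM in the CTdel libraries, 190.02 and 888.47 FPKM in the ICN libraries and 0.89 and 1.72 FPKM in the con libraries. Plasmid reads and reads of the endogenous gene are pooled in this value. Of the markers of the labelled pro-B identity, Pax5, Ebf1, Vpreb1, Igll1, Blnk, Il7r and Rag1 were below 1 FPKM in every library. The antigen receptor chains passed the filter: Cd79b had 8.30 and 13.42 FPKM in CTdel, 6.36 and 4.34 FPKM in ICN and 3.62 and 4.32 FPKM in con, and Cd79a had 0.84 and 3.15 FPKM in CTdel, 1.35 and 2.08 FPKM in ICN and 0 and 0.79 FPKM in con. Neither was called in CTdel against con (limma adjusted p = 0.165 for Cd79b and 0.206 for Cd79a). The groups also differed in other lineage markers. The 8 myeloid markers summed to 597.16 and 621.61 FPKM in CTdel, 316.43 and 194 FPKM in ICN and 101.78 and 76.26 FPKM in con, and the mast cell and basophil markers to 86.77 and 64.52 FPKM in CTdel, 117.17 and 87.82 FPKM in ICN and 265.11 and 198.76 FPKM in con. Spi1 and Tyrobp made up most of the myeloid sum in every library. Of the 7 tested myeloid markers, 5 had all insert values above both con values, against 12.0% of all tested genes. Lyz2 did not follow the sum, with 3.43 and 1.21 FPKM in CTdel, 5.08 and 0.88 FPKM in ICN and 1.72 and 3.30 FPKM in con. The transcription factor Gata2 made up most of the mast cell and basophil sum, with 74.73 and 61.75 FPKM in CTdel, 104.08 and 78.03 FPKM in ICN and 237.77 and 192.23 FPKM in con. In the same list Hdc, the histamine-making enzyme, was instead higher in each insert library than in both con libraries, with 7.48 and 1.13 FPKM in CTdel, 2.92 and 7.45 FPKM in ICN and 0.53 and 0.39 FPKM in con, and Kit, Fcer1a and Mcpt8 were at or below 0.11 FPKM in the table of replicate 1, which lists them. The part of these lineage markers in the results on the glycolysis and hypoxia genes was not tested. In these bulk libraries fewer cells of a type and less RNA per cell cannot be told apart.

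Of the 36 genes, 35 were in the tables, 33 in both of them, and 31 passed the filter for testing, which asked for at least 1 FPKM in at least 2 of the 6 libraries. Aldoc, an aldolase of brain, and Slc16a3, the lactate exporter MCT4, were in both tables and stayed at or below 0.30 and 0.26 FPKM. Egln3, an oxygen-sensing prolyl hydroxylase, was listed only in the table of replicate 1, with 0.02 FPKM in CTdel and 0 in ICN and con, and Eno2, the neuronal enolase, only in that of replicate 2, with 0.03 FPKM in ICN and 0 in CTdel and con. P4ha2 was found under its symbol in neither table and so was not analysed here. The 31 tested genes were fitted together with all 11050 genes that passed the filter, by limma on log2(FPKM + 1) with the table as a term, and a gene is called where its Benjamini-Hochberg adjusted p over all 11050 is below 0.05. A log2 change on this scale understates the change of a low gene. With 2 libraries a group an exact permutation test of a single value cannot go below p = 0.333, so single values outside this fit are given without a test.

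Differences between libraries of 1 group have to be known before the comparisons. Library con replicate 1 had the highest value of the 6 libraries in 19 of the 31 tested glycolysis and hypoxia genes (61.3%), against 18.9% of all 11050 tested genes, and ICN replicate 2 had the lowest value in 21 of the 31 (67.7%), against 26.2% of all tested genes. Con replicate 1 was the highest library for 6 of the 7 tested hypoxia targets, 7 of the 15 glycolytic enzymes, 2 of the 3 carriers, 2 of the 4 switches and both oxygen-sensing genes. ICN replicate 2 was the lowest for 13 of the 15 tested glycolytic enzymes. Changes within each table, or without a library, are therefore given beside the main results.

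**Figure D1:**
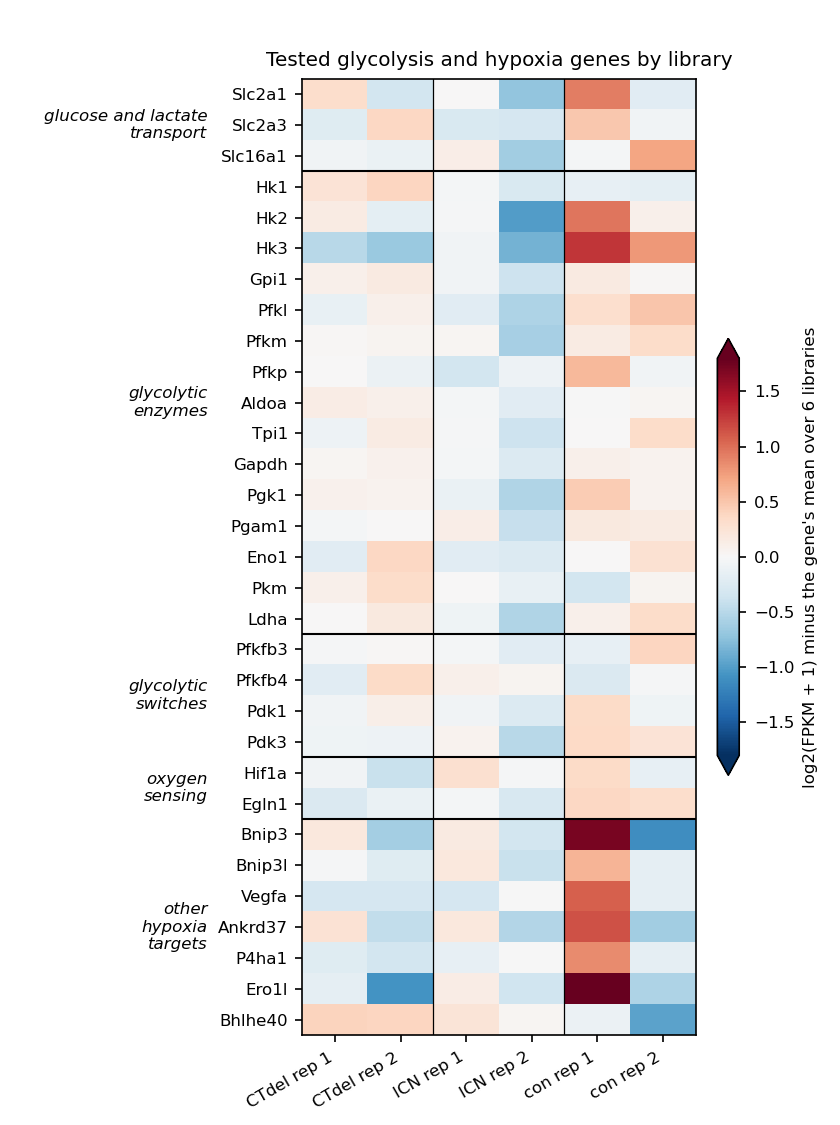
Levels of the tested genes in each library, with genes ordered by role from top to bottom and the libraries of CTdel, ICN and con from left to right. Colour gives log2(FPKM + 1) minus the gene's mean over the 6 libraries. Con replicate 1 stands high over most hypoxia targets, and ICN replicate 2 stands low over most glycolytic enzymes.

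Hexokinases trap glucose in the cell by phosphorylating it, and this first step of glycolysis held the only called gene of the 31, where 0.109% of all 11050 tested genes were called lower in CTdel than in con. Hk3, a hexokinase of myeloid and other blood cells, fell in CTdel cells well below its level in con cells and was similarly low in ICN cells, while Hk1, the widely expressed form that binds mitochondria, did not share this direction. The promoters of Hk2, the form that hypoxia and growth factors are known to raise, and of Hk3 are shown because the 2 genes had the smallest p-values of the 31 when ICN was compared with con. Each line gives the 250 bases upstream of a transcript start of the gene, on the gene's strand, from RefSeq in build GRCm38.p6, at chr6:82774455-82774704 on the minus strand for Hk2 and at chr13:55021386-55021635 on the minus strand for Hk3. Capitals mark ACGTG or GCGTG, the core letters that HIF binds, or their reverse complements CACGT and CACGC. Of these, only ACGTG and CACGT can lie within the E-box CACGTG bound by MYC, and neither hexokinase window holds that E-box.
Hk2: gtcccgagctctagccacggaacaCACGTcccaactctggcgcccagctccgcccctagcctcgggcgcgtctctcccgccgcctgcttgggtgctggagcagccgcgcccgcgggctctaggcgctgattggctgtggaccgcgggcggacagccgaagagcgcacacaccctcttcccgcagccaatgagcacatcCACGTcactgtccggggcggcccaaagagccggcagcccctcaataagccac
Hk3: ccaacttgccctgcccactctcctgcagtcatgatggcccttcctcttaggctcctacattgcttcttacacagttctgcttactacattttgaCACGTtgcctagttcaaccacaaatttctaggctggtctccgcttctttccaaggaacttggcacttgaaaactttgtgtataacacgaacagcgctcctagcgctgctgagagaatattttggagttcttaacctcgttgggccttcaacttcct
Hk2 has 2 such stretches and Hk3 has 1. Over all RefSeq mouse windows of this length, 38.6% of 32851 hold at least 1 of the 2 cores on either strand, so a match by itself is common.

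Hk3 (Gene ID 212032, chromosome 13, 55005985 to 55021475) had 34.50 and 30.53 FPKM in the CTdel libraries, 46.86 and 26.77 FPKM in the ICN libraries and 121.39 and 85.14 FPKM in the con libraries. Each of the 4 libraries with a NOTCH1 insert was below both con libraries. Over all tested genes, 12.2% lay below both con libraries in all 4. Gata2 was likewise below both con libraries in all 4, but of the same marker list Hdc was above both and Cpa3 overlapped with con. The summed myeloid markers were above both con libraries in all 4, though Lyz2 did not follow the sum. The part of these markers in the Hk3 values was not tested. The log2 change of CTdel against con was -1.62 (SE 0.23, limma adjusted p = 0.0399), with -1.79 within the table of replicate 1 and -1.45 within that of replicate 2. The log2 change of ICN against con was -1.49 (SE 0.23, limma adjusted p = 0.12), with -1.35 and -1.63 within the tables, so Hk3 was not called in ICN. The mean of both forms against con gave -1.56 (SE 0.20, limma adjusted p = 0.0358), and the test of CTdel against ICN gave -0.12 (limma adjusted p = 0.902). The log2 change in CTdel stayed between -1.86 and -1.38 when 1 library was left out, but the call was not kept: the adjusted p for CTdel was 0.0754 without the table term, 0.159 without the filter on low genes, and between 0.0985 and 0.37 when 1 CTdel or con library was left out.

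Hk2 (Gene ID 15277, chromosome 6, 82725025 to 82774454) had 29.23 and 23.07 FPKM in CTdel, 25.89 and 12.64 FPKM in ICN and 52.49 and 28.04 FPKM in con. The ICN values lay below both con values, whereas 1 CTdel value overlapped with con. Its log2 change was -1.04 for ICN (SE 0.24, limma adjusted p = 0.189), with -0.99 in the table of replicate 1 and -1.09 in that of replicate 2, and among the alternatives run it was called only without ICN replicate 1 (-1.23, adjusted p = 0.0239). For CTdel it was -0.55 (SE 0.24, limma adjusted p = 0.468), with -0.82 and -0.27 within the tables. Hk1 (Gene ID 15275, chromosome 10, 62268855 to 62379920) had 95.31 and 104.84 FPKM in CTdel, 77.84 and 65.75 FPKM in ICN and 71.88 and 70.68 FPKM in con. Both CTdel values were the highest of the 6, and the ICN values lay on either side of con. The log2 change was 0.48 for CTdel against con (SE 0.21, limma adjusted p = 0.45), 0.01 for ICN against con (adjusted p = 0.993) and 0.48 for CTdel against ICN (adjusted p = 0.705).

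Seen as a family, the hexokinases had a different makeup in each of the insert groups than in con. Hk3 made up 21.68% and 19.26% of the summed hexokinase FPKM in CTdel, 31.08% and 25.36% in ICN and 49.34% and 46.28% in con. Hk1 made up 59.9% and 66.14% in CTdel, 51.64% and 62.3% in ICN and 29.21% and 38.42% in con. Thus Hk1 was the main hexokinase transcript in all 4 libraries with an insert and Hk3 in both con libraries. The family's sum was 159.11 and 158.52 FPKM in CTdel, 150.75 and 105.54 FPKM in ICN and 246.05 and 183.95 FPKM in con, without overlap between either insert group and con.

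**Figure D2:**
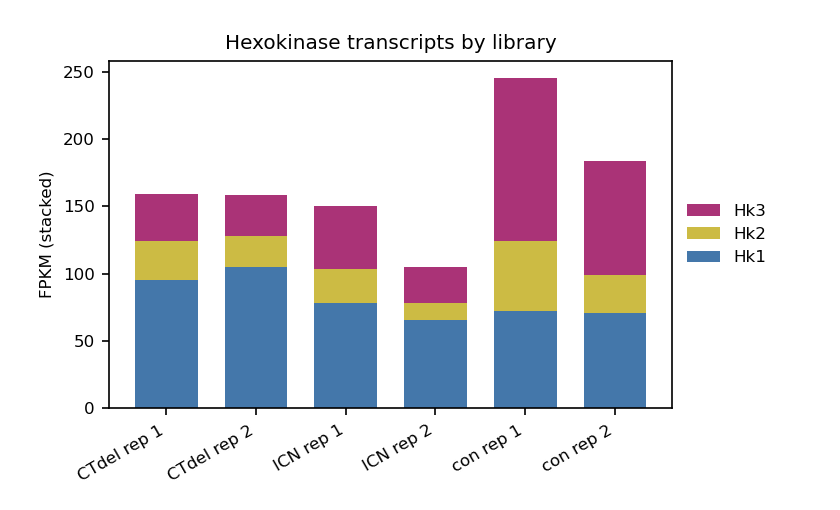
Stacked bars of the FPKM of Hk1, Hk2 and Hk3 in each library on an axis from 0, with the libraries of CTdel, ICN and con from left to right. The Hk3 segment is at 121.39 and 85.14 FPKM in the con libraries, against at most 46.86 FPKM in the 4 others, while the Hk1 segment is tallest in CTdel.

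Phosphofructokinase commits the sugar to glycolysis, and its liver-type subunit Pfkl showed the same order as Hk2. Pfkl had 38.35 and 45.04 FPKM in CTdel, 36.59 and 28.54 FPKM in ICN and 52.45 and 60.09 FPKM in con, so neither insert group overlapped with con. Its log2 change was -0.78 for ICN (SE 0.23, limma adjusted p = 0.253), with -0.51 in the table of replicate 1 and -1.05 in that of replicate 2, and among the alternatives run it was called only without ICN replicate 1 (-1.06, adjusted p = 0.0293). For CTdel it was -0.42 (SE 0.23, limma adjusted p = 0.604), with -0.44 and -0.41 within the tables. The platelet-type subunit Pfkp had 63.42 and 59.03 FPKM in CTdel, 50.36 and 59.50 FPKM in ICN and 95.13 and 60.66 FPKM in con, and so stood apart in con replicate 1 only. The muscle-type subunit Pfkm had 10.63 and 10.82 FPKM in CTdel, 10.68 and 6.55 FPKM in ICN and 11.63 and 13.41 FPKM in con. Pfkp was the largest of the 3 in every library, with 45.21% to 62.9% of their sum, and the 2 con libraries themselves held 59.75% and 45.21%. The sum of the 3 subunits was 112.4 and 114.89 FPKM in CTdel, 97.63 and 94.59 FPKM in ICN and 159.21 and 134.16 FPKM in con.

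Outside these 2 steps the pathway ran on a few very abundant transcripts. Gpi1, Aldoa, Tpi1, Gapdh, Pgk1, Pgam1, Eno1, Pkm and Ldha were each above 200 FPKM in all 6 libraries and together made up 94.7% to 96.6% of the summed FPKM of the 17 glycolytic enzymes. Gapdh, which oxidises glyceraldehyde phosphate, was the most abundant, with 2573.18 and 2654.80 FPKM in CTdel, 2461.99 and 2127.08 FPKM in ICN and 2674.31 and 2632.31 FPKM in con. Its CTdel values lay beside those of con and both ICN values lay below. The summed FPKM of the 17 enzymes was 7357.40 and 8012.25 in CTdel, 6994.79 and 5902.63 in ICN and 7594.66 and 7874.75 in con, or 0.969 and 1.02 times the con library of the same table in CTdel and 0.921 and 0.750 times in ICN. The pathway's summed transcript level in CTdel thus lay on either side of con, and in ICN below con in each table, by much more in replicate 2.

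Gene by gene, the ICN values of the enzymes lay mostly under con. Of the 15 tested glycolytic enzymes, 13 were lower in ICN than in con within both tables, against 26.7% of all tested genes, and 13 had both ICN values below both con values, against 19.6% of all tested genes. None was called: limma called 0 of the 31 members in ICN against con, and 4 of the 11050 genes (0.0362%), all higher, with 5 of the members lower at an unadjusted p below 0.05 (5.03% of all tested genes) and 1 higher (10.0%). The median log2 change of the 15 enzymes in ICN was -0.37, with -0.17 in the table of replicate 1 and -0.57 in that of replicate 2, beside 0.00 for all tested genes. Without ICN replicate 2 the median was -0.15, and without ICN replicate 1 it was -0.60, so its size rests on which ICN library is used while its direction does not. ICN replicate 2 was also the library with the highest Notch1 level, and the part of that difference in the enzyme values was not tested.

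Pgk1, which makes the first ATP of the pathway and is a classical target of HIF, had 428.91 and 421.98 FPKM in CTdel, 372.51 and 279.16 FPKM in ICN and 556.99 and 423.03 FPKM in con. Its ICN values were under both con values, while the CTdel values lay close to con replicate 2; the log2 change in ICN was -0.59 (SE 0.21, limma adjusted p = 0.296), with -0.58 in the table of replicate 1 and -0.60 in that of replicate 2. Ldha, the dehydrogenase subunit that favours lactate production, had 664.00 and 750.75 FPKM in CTdel, 630.35 and 454.96 FPKM in ICN and 707.73 and 833.49 FPKM in con, with a log2 change of -0.52 in ICN (limma adjusted p = 0.376) that was -0.17 in the table of replicate 1 and -0.87 in that of replicate 2. Ldha supplied nearly all of the lactate dehydrogenase FPKM in every library, so no subunit switch was seen. Gpi1, which isomerises glucose phosphate, had 293.85 and 307.17 FPKM in CTdel, 262.69 and 212.40 FPKM in ICN and 308.97 and 278.28 FPKM in con. Again both ICN values were the lowest, with a log2 change of -0.31 in ICN (limma adjusted p = 0.481), or -0.23 and -0.39 within the tables.

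Pkm, the last ATP-making enzyme, did not share the low ICN values, with 1014.23 and 1190.18 FPKM in CTdel, 952.85 and 860.95 FPKM in ICN and 752.96 and 980.24 FPKM in con. Both CTdel values were above both con values, with a log2 change of 0.35 (SE 0.21, limma adjusted p = 0.632), and the ICN values lay between the con values. Aldoa, the aldolase that cleaves the sugar, had 943.35 and 916.27 FPKM in CTdel, 840.88 and 743.80 FPKM in ICN and 855.22 and 880.66 FPKM in con. Like Pkm it was above con in both CTdel libraries, but it was below con in both ICN libraries, by a log2 change of 0.10 in CTdel and -0.13 in ICN. Tpi1, the triose isomerase, ranged from 211.19 to 344.95 FPKM and Pgam1, the mutase, from 280.05 to 423.11 FPKM, each lowest in ICN replicate 2. Eno1, the main enolase, had 547.56 and 818.32 FPKM in CTdel, 546.12 and 533.08 FPKM in ICN and 636.27 and 767.15 FPKM in con. Its level is uncertain, since the near-identical copy Eno1b was given 385.07 to 594.31 FPKM and the split of reads between the 2 copies is not known. Gapdh and several other abundant glycolytic genes also have processed pseudogenes in the mouse genome, and how reads shared with them were assigned is not stated.

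Membrane carriers bring glucose in and move lactate out. Slc2a1, the glucose carrier GLUT1, had 46.08 and 29.11 FPKM in CTdel, 36.93 and 22.03 FPKM in ICN and 70.72 and 31.86 FPKM in con. Within each table it was highest in con and lowest in ICN, yet replicate 1 was above replicate 2 in every group, so the groups overlapped; the log2 change was -0.72 in ICN (SE 0.22, limma adjusted p = 0.259), with -0.92 and -0.51 within the tables, and -0.37 in CTdel (SE 0.22, adjusted p = 0.632), with -0.61 and -0.13. Without con replicate 1 the ICN change of Slc2a1 was -0.49, and without con replicate 2 it was -0.94. Slc2a3, the high-affinity carrier GLUT3, had 44.25 and 67.35 FPKM in CTdel, 42.89 and 42.01 FPKM in ICN and 73.20 and 49.38 FPKM in con. Both ICN values lay under con, and CTdel lay under con in the table of replicate 1 and over it in that of replicate 2. Slc16a1, the lactate and pyruvate carrier MCT1, had 49.86 and 47.94 FPKM in CTdel, 56.76 and 33.21 FPKM in ICN and 50.83 and 86.05 FPKM in con, and it was the main lactate carrier, since Slc16a3 was near 0. The high con value was that of replicate 2 here, not replicate 1.

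None of the 4 switches was called. Pfkfb3 and Pfkfb4, which make the allosteric activator of phosphofructokinase, ranged from 8.58 to 13.41 FPKM and from 5.08 to 8.20 FPKM over the 6 libraries. Pdk1 and Pdk3 inhibit pyruvate dehydrogenase and so hold pyruvate back from the mitochondria. Pdk3 had 32.35 and 31.89 FPKM in CTdel, 35.71 and 23.86 FPKM in ICN and 44.06 and 40.44 FPKM in con, with both insert groups under con, and its log2 change was -0.38 in CTdel (limma adjusted p = 0.627) and -0.52 in ICN (adjusted p = 0.353), the ICN change being -0.30 in the table of replicate 1 and -0.74 in that of replicate 2. Pdk1, the form best known as a HIF target, had 5.48 and 6.31 FPKM in CTdel, 5.50 and 4.72 FPKM in ICN and 7.6 and 5.41 FPKM in con, and its groups overlapped.

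Hif1a encodes the oxygen-labile subunit of HIF and Egln1 the prolyl hydroxylase PHD2 that marks it for destruction. The Hif1a transcript had 26.16 and 20.47 FPKM in CTdel, 33.73 and 27.01 FPKM in ICN and 34.92 and 24.65 FPKM in con. The ICN and con values interleaved, and CTdel lay under both groups within each table, with a log2 change of -0.37 against ICN (SE 0.20, limma adjusted p = 0.707) and -0.33 against con (SE 0.20, adjusted p = 0.629). The transcript is not a measure of the protein, which oxygen controls by degradation. Egln1 had 14.91 and 16.56 FPKM in CTdel, 17.58 and 14.56 FPKM in ICN and 23.50 and 22.72 FPKM in con. The con libraries were close together and above all 4 others: the log2 change was -0.53 in CTdel (SE 0.21, limma adjusted p = 0.405), -0.50 in ICN (adjusted p = 0.337) and -0.52 for both forms together (adjusted p = 0.267).

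At the median, the hypoxia targets beyond glycolysis differed from con far more in the table of replicate 1 than in that of replicate 2. Bnip3 and its relative Bnip3l drive the removal of mitochondria, Vegfa is the secreted growth factor of blood vessels, P4ha1 hydroxylates collagen, Ero1l is an oxidase for disulfide bonds in the endoplasmic reticulum, and Ankrd37 is an ankyrin-repeat protein induced by HIF. All 6 stood highest in con replicate 1, and in 5 of them that library was more than 1 log2 unit above con replicate 2. Promoters of 3 of them, picked after the values were seen, are shown as examples of genes that stood high in that library and hold several HIF cores. They lie at chr7:138909507-138909756 on the minus strand for Bnip3, chr14:45318573-45318822 on the minus strand for Ero1l and chr10:59323046-59323295 on the plus strand for P4ha1, from RefSeq in GRCm38.p6, with capitals as for the hexokinases.
Bnip3: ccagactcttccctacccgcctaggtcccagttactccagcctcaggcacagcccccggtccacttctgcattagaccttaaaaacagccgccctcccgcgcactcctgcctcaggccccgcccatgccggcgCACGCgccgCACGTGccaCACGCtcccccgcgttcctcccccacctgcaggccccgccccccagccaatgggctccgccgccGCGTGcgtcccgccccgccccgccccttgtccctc
Ero1l: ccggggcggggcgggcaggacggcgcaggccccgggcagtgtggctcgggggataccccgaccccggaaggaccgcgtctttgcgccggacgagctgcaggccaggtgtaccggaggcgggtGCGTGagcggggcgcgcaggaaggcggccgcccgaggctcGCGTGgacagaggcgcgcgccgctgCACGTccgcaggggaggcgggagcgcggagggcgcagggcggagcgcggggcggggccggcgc
P4ha1: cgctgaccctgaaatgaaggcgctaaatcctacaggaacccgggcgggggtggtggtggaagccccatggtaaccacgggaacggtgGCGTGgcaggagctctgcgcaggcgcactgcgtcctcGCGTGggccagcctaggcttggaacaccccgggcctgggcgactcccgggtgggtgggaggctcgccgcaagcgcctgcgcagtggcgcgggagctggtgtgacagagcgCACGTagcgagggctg
Bnip3 holds 5 matches to the cores, 2 of which overlap in its 1 CACGTG and are marked as 1 stretch. Ero1l holds 3 and P4ha1 3, and the windows of Ankrd37 and Vegfa hold others. Among the 46 RefSeq windows found for 32 of the 36 genes, 37 (80.4%) hold at least 1 core on either strand. Over all windows of this length the share was 38.6%. ACGTG alone was in 52.2% of the members' windows and 16.6% of all, GCGTG in 54.3% and 28.2%, and the overlapping CACGTG in 13% and 6.02%. A gene with several windows counts more than once. The set was chosen for glycolysis and hypoxia, and several of its genes are textbook HIF targets, so these shares are not a test. A match describes letters and not binding.

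Ero1l (Gene ID 50527, chromosome 14, 45283087 to 45318572) had 37.26 and 19.20 FPKM in CTdel, 46.08 and 32.43 FPKM in ICN and 172.06 and 27.98 FPKM in con. Con replicate 1 stood far above the 5 other libraries, among which con replicate 2 lay within the range of the insert groups. The log2 change of CTdel against con was -1.35 (SE 0.49, limma adjusted p = 0.369), with -2.18 in the table of replicate 1 and -0.52 in that of replicate 2; without con replicate 1 it was -0.41 (adjusted p = 0.596), and without con replicate 2 it was -2.28 (adjusted p = 0.0378). In ICN the change was -0.84 (adjusted p = 0.448), with -1.88 and 0.21 within the tables. Bnip3 (Gene ID 12176, chromosome 7, 138890836 to 138909506) had 31.66 and 17.80 FPKM in CTdel, 30.99 and 21.81 FPKM in ICN and 92.48 and 12.24 FPKM in con. Its con libraries were the highest and the lowest of the 6, so the log2 change against con was negative in the table of replicate 1, at -1.52 in CTdel and -1.55 in ICN, and positive in that of replicate 2, at 0.51 in CTdel and 0.78 in ICN.

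Vegfa had 12.01 and 12 FPKM in CTdel, 11.92 and 14.86 FPKM in ICN and 32.75 and 13.36 FPKM in con. P4ha1 had 8.30 and 7.59 FPKM in CTdel, 8.71 and 9.75 FPKM in ICN and 18.44 and 8.65 FPKM in con, and Ankrd37 7.45 and 4.21 FPKM in CTdel, 7.06 and 3.89 FPKM in ICN and 14.70 and 3.56 FPKM in con. In all 3 genes con replicate 1 stood above the 5 other libraries. Bnip3l had 33.13 and 28.73 FPKM in CTdel, 38.14 and 25.21 FPKM in ICN and 51.50 and 29.70 FPKM in con, with a smaller gap between the con libraries.

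Bhlhe40, a transcription repressor that hypoxia raises and that also answers to cytokines, had its values in the opposite order. It had 124.39 and 122.85 FPKM in CTdel, 110.83 and 96.54 FPKM in ICN and 87.00 and 47.82 FPKM in con. All 4 libraries with an insert were above both con libraries, and CTdel was above ICN. The log2 change was 0.93 in CTdel (SE 0.26, limma adjusted p = 0.221), 0.67 in ICN (SE 0.26, adjusted p = 0.323) and 0.80 for both forms together (adjusted p = 0.203), so that Bhlhe40 was not called either. Con replicate 2 was the lowest library for Bhlhe40. Without it the change was 0.56 in CTdel and 0.30 in ICN, and without con replicate 1 it was 1.30 in CTdel and 1.04 in ICN.

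**Figure D3:**
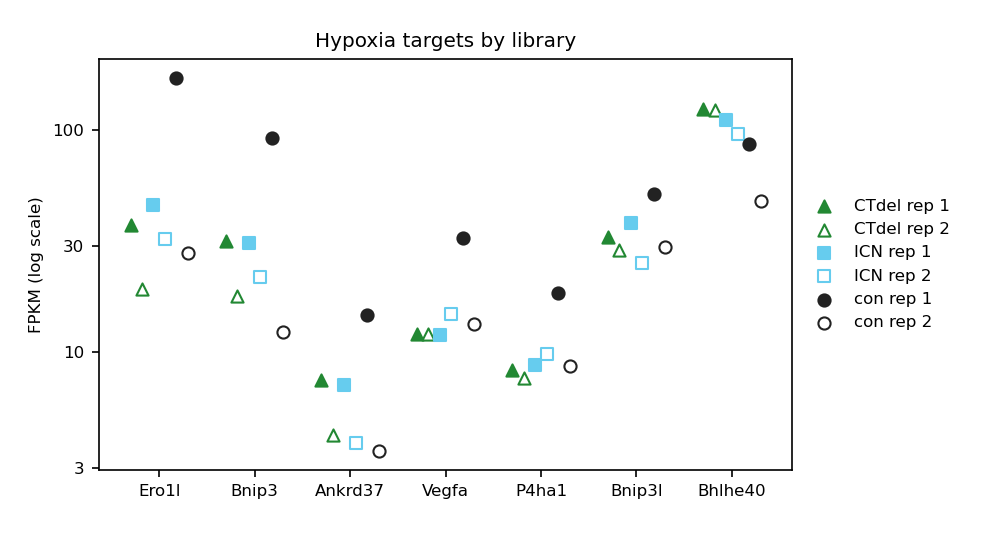
FPKM (log axis) of the 7 tested hypoxia targets beyond glycolysis in each library, with triangles for CTdel, squares for ICN and circles for con, filled for replicate 1 and open for replicate 2. The filled circle of con replicate 1 lies above all other libraries for each gene but Bhlhe40, which is highest in the CTdel libraries.

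As a group, the 7 tested hypoxia targets had a median log2 change of -0.51 in CTdel and -0.42 in ICN, beside -0.06 and 0.00 for all tested genes. Within the table of replicate 1 the medians were -1.06 in CTdel and -1.0 in ICN, and within that of replicate 2 they were -0.05 in CTdel and 0.16 in ICN. Without con replicate 1 they were -0.07 in CTdel and 0.10 in ICN, and without con replicate 2 they were -1.13 in CTdel and -0.97 in ICN. At the median, the lower levels against con were thus a difference from 1 con library. Between the 2 con libraries the 7 genes had a median log2 difference of 1.23, replicate 1 being higher in all 7, whereas replicate 1 was above replicate 2 by a median of 0.20 in CTdel and 0.49 in ICN, with none of the 7 past 1 log2 unit. Over all tested genes the median difference between the con libraries was 0.03, and 4.38% were more than 1 log2 unit higher in replicate 1.

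Genes outside the set followed con replicate 1 in part. Of the 29 tested genes of a second list of hypoxia targets, 22 were higher in con replicate 1 than in con replicate 2, and 6 (20.7%) by more than 1 log2 unit, the median difference of the 29 being 0.41. The ratio of con replicate 1 to con replicate 2 was 5.07 for Ndrg1, 5.27 for Ccng2 and 3.90 for Ddit4, 3 stress-response genes picked after their values were seen. The 15 glycolytic enzymes had a median difference of 0.02 between the same 2 libraries, although con replicate 1 was the highest of the 6 libraries for 7 of them, Hk2, Hk3, Pfkp and Pgk1 included. What sets con replicate 1 apart was not tested.

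For CTdel against con as a whole, limma called 1 of the 31 genes lower, Hk3, and none higher, where 0.109% of all 11050 tested genes were called lower and 1.30% higher. At an unadjusted p below 0.05, 3 of the 31 were lower in CTdel (3.99% of all tested genes) and 1 higher (7.79%). The median log2 change of the 31 was -0.20 (-0.40 in the table of replicate 1 and -0.13 in that of replicate 2), beside -0.06 for all tested genes. Of the 31, 9 had both CTdel values below both con values, against 23.5% of all tested genes, and 4 had them above, against 18.3%. The share without overlap is thus close to that of all genes on the lower side. In ICN against con the median was -0.42 (-0.30 and -0.31 within the tables), beside 0.00 for all tested genes, and 16 of the 31 lay without overlap below con, against 19.6% of all, and 2 above it, against 22.7%. For the mean of both forms against con, Hk3 was again the only called gene of the 31, where 0.0995% of all tested genes were called lower and 1.01% higher, and at an unadjusted p below 0.05 6 of the 31 were lower (5.57% of all tested genes) and 1 higher (9.87%). All 4 insert values were below both con values in 6 of the 31, against 12.2% of all tested genes, and above both in 1, Bhlhe40, against 12.0%. The comparisons of CTdel and of ICN share the con libraries and are not independent of each other.

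**Figure D4:**
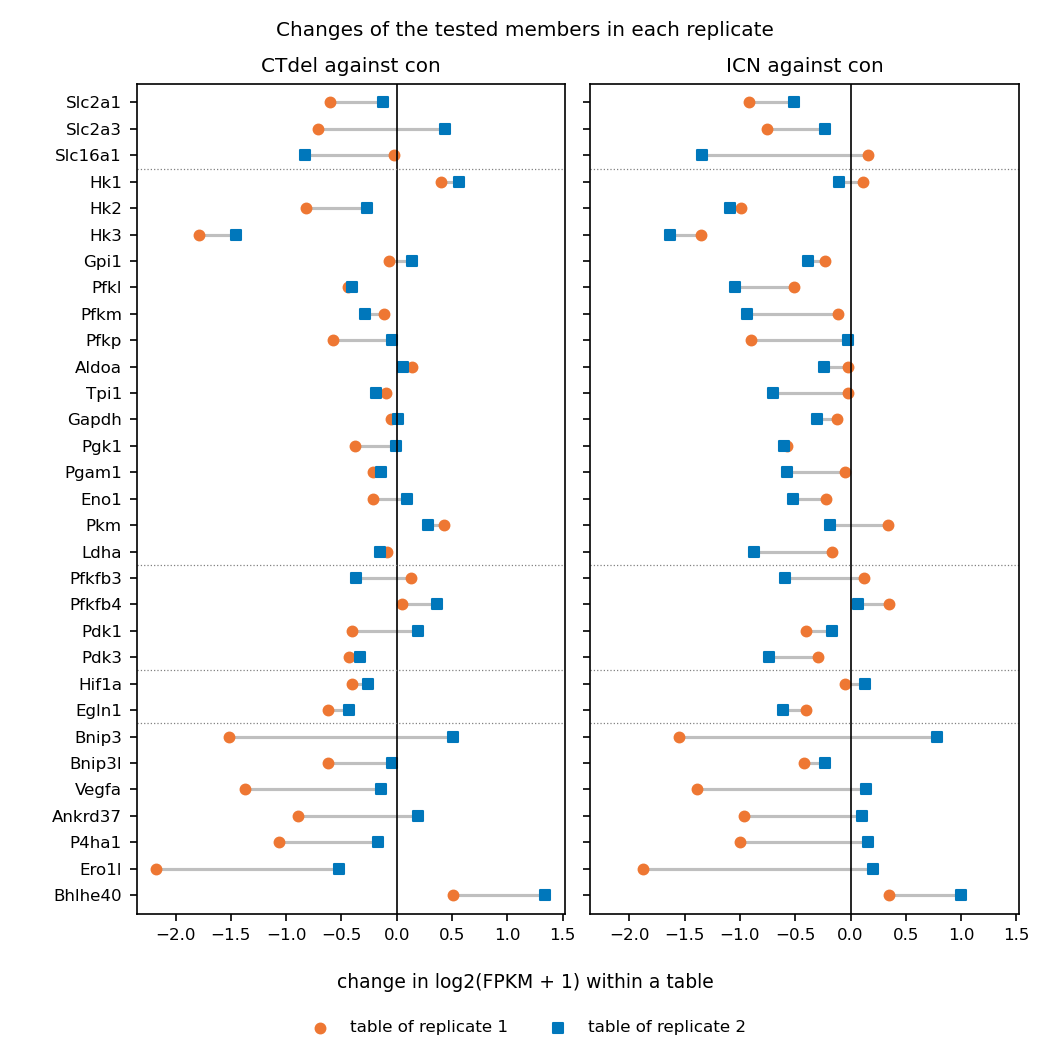
Change in log2(FPKM + 1) against con of each tested gene (horizontal axis), for CTdel in the left panel and ICN in the right, with a circle for the table of replicate 1, a square for that of replicate 2 and a grey line joining them. The points of Hk3 lie together at -1.79 and -1.45 in CTdel and at -1.35 and -1.63 in ICN, whereas those of Ero1l, Bnip3 and Vegfa are far apart, with the circle low.

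When CTdel was set against ICN directly, limma called 0 of the 31 genes, with 0 at an unadjusted p below 0.05 in either direction, where 2 of the 11050 tested genes were called, both lower in CTdel (0.0181%), and 3.49% were higher and 3.64% lower at an unadjusted p below 0.05. The values of the glycolytic enzymes nevertheless lay mostly above ICN in CTdel: 14 of the 15 had a positive log2 change, against 5009 of the 11050 tested genes. Their median was 0.31, beside -0.04 for all tested genes. This median was 0.07 in the table of replicate 1 and 0.53 in that of replicate 2, the table that holds ICN replicate 2. Notch1 also differed, at 84.94 and 25.36 FPKM in CTdel and 190.02 and 888.47 FPKM in ICN. The form of the insert and its level cannot be told apart in this comparison. The smallest p-values belonged to Hk1, Hk2 and Pgk1, with log2 changes of 0.48, 0.49 and 0.40 and a limma adjusted p of 0.705 for each. Over all 31 genes 12 had both CTdel values above both ICN values, against 15.6% of all tested genes, and 2 had them below, against 25.0%.

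The neighbouring pathways were described with lists that did not use the members but were likewise chosen with earlier results of these data known. They gave 2 called genes. Of the 15 other glycolysis genes tested of 27 listed, limma called 0 in CTdel and 0 in ICN. Over all tested genes, 1.30% were called higher and 0.109% lower in CTdel, and 0.0362% higher and 0% lower in ICN. At an unadjusted p below 0.05, 2 of the 15 were higher in CTdel (7.79% of all tested genes). In ICN, 1 was higher (10.0%) and 1 lower (5.03%). Among them Slc2a6, a member of the glucose carrier family found on lysosomes, had 33.32 and 8.84 FPKM in CTdel, 21.78 and 13.77 FPKM in ICN and 8.55 and 0.69 FPKM in con. Every insert library exceeded both con libraries, and the log2 change was 2.19 in CTdel (limma adjusted p = 0.105) and 2.19 in ICN (adjusted p = 0.169). All 11 pentose phosphate genes were tested and 0 called in either group. At an unadjusted p below 0.05, 1 was higher in CTdel (7.79% of all tested genes) and 1 higher in ICN (10.0%). Taldo1, the transaldolase that feeds sugars back to glycolysis, had 483.22 and 466.27 FPKM in CTdel, 343.14 and 294.35 FPKM in ICN and 138.36 and 220.77 FPKM in con, again without overlap, with a log2 change of 1.44 in CTdel (limma adjusted p = 0.0922) and 0.86 in ICN (adjusted p = 0.267).

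Of pyruvate dehydrogenase and mitochondrial pyruvate entry, 11 of 13 genes were tested and 0 called. At an unadjusted p below 0.05, 0 differed in CTdel and 3 were lower in ICN (5.03% of all tested genes). All 17 citric acid cycle genes were tested and 0 called. At an unadjusted p below 0.05, 1 was higher in CTdel (7.79% of all tested genes) and 0 differed in ICN. Of the 17, 16 had a negative log2 change in ICN, against 49.8% of all tested genes. Their median was -0.25, though it was 0.09 in the table of replicate 1 and -0.46 in that of replicate 2. ICN replicate 2 was the lowest library for 6 of the 11 and for 10 of the 17 genes of these lists. Of the HIF factors and their regulators, 9 of 13 were tested and 0 called. At an unadjusted p below 0.05, 0 differed in ICN and 1 was lower in CTdel (3.99% of all tested genes). That gene was Cited2, a competitor of HIF for its coactivator, at a log2 change in CTdel of -1.0 (limma adjusted p = 0.159).

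The second list of hypoxia targets, with 29 of 37 genes tested, held 1 called gene, higher in CTdel (1.30% of all tested genes), and 0 in ICN. At an unadjusted p below 0.05, 3 were higher and 4 lower in CTdel (7.79% and 3.99% of all tested genes). In ICN 4 were higher and 3 lower (10.0% and 5.03%). Pgf, a relative of Vegfa, rose to 6.28 and 6.89 FPKM in CTdel, with 8.17 and 5.74 FPKM in ICN, against 1.70 and 0.43 FPKM in con. The log2 change was 1.95 in CTdel (limma adjusted p = 0.0491) and 1.97 for both forms together (adjusted p = 0.0359), and the CTdel call was lost without con replicate 2 (adjusted p = 0.109) and without CTdel replicate 2 (adjusted p = 0.222). Of the MYC network and carbohydrate-response factors, which also drive glycolytic genes, 10 of 13 were tested. The 1 called gene was lower in CTdel (0.109% of all tested genes), and 0 were called in ICN. At an unadjusted p below 0.05, 0 were higher and 1 lower in CTdel (7.79% and 3.99% of all tested genes). In ICN 2 were higher and 3 lower (10.0% and 5.03%). Mycn fell to 21.15 and 18.67 FPKM in CTdel, with 30.98 and 19.31 FPKM in ICN, against 81.94 and 54.42 FPKM in con, a log2 change of -1.70 in CTdel (limma adjusted p = 0.0306), which was not called when any 1 CTdel or con library was left out (adjusted p between 0.0639 and 0.267). Myc, far more abundant, had 172.55 and 192.04 FPKM in CTdel, 112.90 and 89.86 FPKM in ICN and 197.82 and 194.24 FPKM in con. Its ICN values were the lowest of the 6, with a log2 change of -0.95 against con (limma adjusted p = 0.18), and Myc had the smallest p of its list in CTdel against ICN, at 0.85 (adjusted p = 0.568). Mxd1, a repressor that competes with MYC for its partner, had 5.61 and 4.24 FPKM in CTdel, 8.83 and 21.08 FPKM in ICN and 3.17 and 2.02 FPKM in con. Its values ran the other way, highest in ICN, with a log2 change of 2.05 in ICN against con (limma adjusted p = 0.169). Txnip, a glucose-induced brake on glucose uptake, had 145.57 and 128.43 FPKM in CTdel, 245.41 and 636.89 FPKM in ICN and 144.62 and 89.55 FPKM in con. It too was highest in ICN, most of all in replicate 2, with a log2 change of 1.79 against con (limma adjusted p = 0.231), or 0.76 and 2.82 within the tables.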

How the data were processed

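The deposited values are FPKM per gene and library, made by the authors and deposited as 2 tables, each with 1 CTdel, 1 ICN and 1 con library. Per the submitters' processing notes the tools were RSEM, Bowtie2 and HISAT2, and mm10 and hg19 are the builds listed, without roles or versions, and the counting's use of strand is not given in the sources used here. Read counts were not used and the absolute depth is unknown; steps in the low FPKM values put the relative depth of the libraries between 0.963 and 1.08 times that of con replicate 1. Deposited symbols that a spreadsheet had turned into dates (26) were restored, and 16799 genes in both tables were kept.

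The FPKM the authors deposited were taken to log2(FPKM + 1), and 11050 genes with at least 1 FPKM in at least 2 libraries were fitted with limma 3.58.1 in R 4.3.3 (lmFit, eBayes with a trend), with group and table as terms, 2 residual degrees of freedom and all 6 libraries sharing the spread; tests were 2-sided with Benjamini-Hochberg adjustment over all 11050 genes, for 4 comparisons. The table was a term because each table was deposited separately. The procedure was tested on simulated data. Members and gene lists were chosen with earlier results of these data known, and lists are described by counts and medians without a test. Named members are those called, the 6 with the smallest p of each comparison and the hexokinase, phosphofructokinase, glucose carrier and pyruvate dehydrogenase kinase families; from other lists the called genes or those of smallest p in a comparison, except where stated. Promoters were searched on both strands in the RefSeq table of GRCm38.p6. Alternatives were the table term left out, a pseudocount of 0.1, no filter, rescaled and quantile-normalized values, no trend, only the compared groups, an adjusted p below 0.1 and each library left out. T cell markers were below 1 FPKM in every library, as were 4 of 5 fibroblast and endothelial markers, and the erythroid markers summed to 22.86 to 36.3 FPKM in CTdel and ICN and 61.4 to 96.57 FPKM in con.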

Additional observations from a re-analysis of the deposited data

How the results depend on the processing

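The members of smallest p in each comparison, and Pgf and Mycn, kept their direction under every alternative run on them, while calls and sizes moved. The median log2 change of the 31 genes in ICN against con, -0.42, was -0.45 with a pseudocount of 0.1, -0.38 with no filter on low genes, -0.41 after rescaling to a common FPKM sum, -0.48 after quantile normalization, and between -0.44 and -0.24 when 1 library was left out. The count of called members in CTdel against con, 1, was 0 without the table term, 0 with no filter, 3 when only the groups compared were fitted (Bhlhe40, Ero1l and Hk3), and 0 to 3 when 1 library was left out. In ICN against con it was 0, and 0 to 5 when 1 library was left out, the 5 without ICN replicate 1 (Hk2, Hk3, Ldha, Pfkl and Slc16a1). For both forms against con it was 1, with 0 without the table term, 0 with no filter and 0 to 4 when 1 library was left out, and the median for both forms lay between -0.42 and -0.15 in those fits. The log2 ratio of summed glycolytic FPKM to con was -0.01 in CTdel, -0.072 to 0.051 with 1 library left out, and -0.27 in ICN, -0.39 to -0.14 with 1 library left out.

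The deviations of same-numbered libraries from their group means had r = 0.326 for CTdel and con, 0.236 for CTdel and ICN and -0.0988 for ICN and con. The numbers are thus not shown to pair the samples. The table enters as a block because the 2 tables were deposited separately, and a difference in their processing is not stated. Without this block Hk3 had a limma adjusted p of 0.0754 in CTdel and 0.0556 for both forms. In CTdel, Pgf was at 0.055 and Mycn at 0.0595 without that block, and with no filter at 0.261 and 0.139; Pgf was also above 0.05 with a pseudocount of 0.1 (0.0737), rescaling (0.0564) and quantile normalization (0.0506). Over all 11050 genes, ICN against con gave 4 calls, 1470 without ICN replicate 1, 147 without ICN replicate 2, 162 with only the compared groups and 0 with no filter, and CTdel against con gave 156, 730 and 0 in the reported, compared-groups and unfiltered fits. The glycolytic sums given here do not count Eno1b. Counting it with Eno1, and leaving libraries out of the medians of glycolytic enzymes and of hypoxia targets, were chosen after seeing the data. A group left with 1 library is assumed to vary like the others. The absolute depth is unknown, which limits what can be said of genes near 0 FPKM.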
